A study of Mus musculus with 24 samples.

Results

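The Mirg cluster, which runs from miR-379 to miR-410, is a row of miRNA genes on the plus strand of mouse chromosome 12, in the imprinted Dlk1-Dio3 region. Its members were taken by position alone, as every plus-strand miRNA feature in a fixed window of that chromosome, and no read count entered the choice. The window held 76 of the 2045 mature miRNA features in the count table. They come from 39 hairpins, of which 37 had both arms in the table. In the GRCm38 assembly (mm10) the miR-379 hairpin starts at base 109709060 of chromosome 12 and the miR-410 hairpin ends at base 109743795, a span of 34.7 kb. The window also took in miR-882, which lies upstream of miR-379 and had 0 reads in every library, and miR-3072, which lies beyond miR-410.

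Small RNA was sequenced from subcutaneous fat of chow-fed female mice, in 24 libraries. They form 4 groups of 6: wild type sedentary, wild type trained, kinase dead sedentary and kinase dead trained. Trained mice ran on a treadmill for 1 hour on 5 days a week at 16 m/min over 6.5 weeks, and had a running wheel; whether sedentary mice also had a wheel is not stated. The sources used here name neither the kinase nor the strain, nor how the kinase dead animals were made. Nothing in the labels says that each library is a separate animal, so the p-values below measure only the spread between these libraries.

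At the Dlk1-Dio3 locus the noncoding RNAs Meg3, Rian and Mirg and the miRNAs are expressed from the maternal chromosome, whereas Dlk1, Rtl1 and Dio3 are expressed from the paternal one. The miRNAs of the cluster are thought to be cut from a long shared transcript, so that 1 promoter can serve many hairpins. Each hairpin can give a mature miRNA from its 5p arm, its 3p arm or both, and the seed of a mature miRNA, bases 2 to 8 from its 5′ end, is the main determinant of which mRNAs it pairs with. miRNAs of this locus are abundant in embryonic tissues and in brain and are also found in adult muscle and fat.

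Of the 39 hairpins, 14 lie within Mirg (chromosome 12, bases 109729764 to 109749460, GENCODE M21), and 9 of these overlap an exon of at least 1 Mirg transcript. The miR-410, miR-382, miR-134, miR-668 and miR-485 hairpins overlap an exon of every Mirg transcript they lie in, while miR-541, miR-409, miR-154, miR-496a and miR-453 overlap introns only. The other 25 hairpins, miR-379, miR-411, miR-300 and miR-381 among them, lie whole in no annotated plus-strand gene other than miRNA genes.

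RefSeq's mature miRNA table for GRCm38.p6 held 72 of the 76 members at the same coordinates. The other 4 are miR-376c-3p, miR-487b-3p, miR-539-3p and miR-485-5p. The 72 sequences carry 66 different seeds: 6 seeds are each shared by a pair of members, and 44 further pairs differ by 1 seed letter. The 10 members with the highest mean level follow, from most to least abundant, 5′ to 3′, with the seed in capitals.
miR-379-5p: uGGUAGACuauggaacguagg
miR-411-5p: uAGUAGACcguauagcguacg
miR-381-3p: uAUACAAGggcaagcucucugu
miR-541-5p: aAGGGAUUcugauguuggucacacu
miR-300-3p: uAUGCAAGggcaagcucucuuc
miR-134-5p: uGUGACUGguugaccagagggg
miR-299a-3p: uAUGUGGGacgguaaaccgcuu
miR-382-5p: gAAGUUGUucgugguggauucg
miR-410-3p: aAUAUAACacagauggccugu
miR-411-3p: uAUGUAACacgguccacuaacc

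The seeds of miR-379-5p and miR-411-5p, the pair that dominated the reads, differ by 1 letter, and so do those of miR-381-3p and miR-300-3p. The next sequences show the shared seeds that involve an abundant hairpin, beginning with the partner of miR-411-3p and then the partner of miR-379-5p. They end with the miR-376 pair, whose seeds differ by 1 letter and whose members behaved differently across the libraries.
miR-379-3p: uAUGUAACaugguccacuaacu
miR-1193-5p: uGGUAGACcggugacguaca
miR-376b-3p: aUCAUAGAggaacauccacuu
miR-376a-3p: aUCGUAGAggaaaauccacgu

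miR-410-3p, at the far end of the cluster, has a seed 1 letter away from the seed that miR-379-3p and miR-411-3p share. The other shared seeds join miR-1197-5p with miR-758-5p, miR-453 with miR-496a-5p, miR-494-5p with miR-410-5p, and miR-376c-5p with miR-376b-5p. A seed that begins with GGU, read on the miRNA strand at bases 2 to 4, occurred in 14 of the 37 distinct 5p sequences of the cluster (37.8%) and in 1 of its 35 3p sequences (2.86%). Among the other miRNAs of the Dlk1-Dio3 region, 2 of 15 5p sequences (13.3%) began that way. Among miRNAs of the count table outside the locus with a RefSeq sequence, it was 10 of 743 5p sequences (1.35%) and 10 of 763 3p sequences (1.31%). This feature was singled out after the sequences were seen, and related hairpins are not independent of one another.

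Library totals ran from 1601209 to 23593237 miRNA-assigned reads, and the cluster supplied 3378 to 51223 of them. Values are given as normalised read counts (counts per 1000000 reads, CPM), scaled with edgeR's TMM factors, which set library sizes so that most features stay level. In the shallowest library, 3 reads equal 1.8 CPM. The labelled tissue was compared with miRNA lists for cell types, every feature of which was detected. Per library, the lists summed to 13650 to 23515 CPM for stromal cells, 12355 to 23292 CPM for epithelium, 29162 to 71956 CPM for endothelium and 91562 to 185892 CPM for smooth muscle. The sums were 471 to 8282 CPM for striated muscle, 1045 to 8086 CPM for red cells, 115 to 278 CPM for nerve and 4.35 to 423 CPM for liver. The endothelium and liver lists each held 1 miRNA. Of the smooth muscle sum, 137757 CPM on average, miR-143-3p made up 135520 CPM. Such sums are levels of the listed miRNAs and do not measure shares of cells. In 7 libraries miR-150-5p, a miRNA abundant in lymphocytes, was at 3460 CPM or more, against 1006 CPM or less in the other 17. The 5 leukocyte miRNAs together made up 12525 to 21919 CPM in the 7 against 1549 to 3288 CPM in the 17. miR-223-3p, listed among the 5, was level, with a median of 186 CPM in the 7 and 182 CPM in the 17. The 7 were spread over all 4 groups: wild type sedentary 1, wild type trained 1 and 2, kinase dead sedentary 5 and 6, and kinase dead trained 3 and 6.

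The cluster made up 0.177% of all reads on average, and its members covered a wide range of levels. Of the 76, 5 averaged 100 CPM or more, 19 averaged 10 CPM or more and 43 averaged 1 CPM or more. At the other end, 5 had no read in any library and 30 had fewer than 100 reads over all libraries. The filter for low counts kept 43 members, so every statement about tested members leaves out the other 33, all of which were low.

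miR-379-5p, the first miRNA of the row, was the most abundant member, at 482 ± 158 CPM (SD, n = 24) and from 225 to 850 CPM across libraries. miR-411-5p, from the next hairpin, averaged 423 ± 109 CPM. Together they supplied 51.0% of the cluster's summed CPM. miR-381-3p followed at 161 ± 48.4 CPM, miR-541-5p at 123 ± 26.4 CPM and miR-300-3p at 120 ± 29.5 CPM. Across libraries the ranges of miR-541-5p and miR-300-3p overlapped, and so did those of miR-379-5p and miR-411-5p. Differences between members within the same library were not tested. The first 5 members supplied 73.8% of the cluster and the first 10 supplied 85.3%.

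The next members in order were miR-134-5p, a miRNA studied for its part in dendritic spine growth in neurons, at 61.7 ± 18.8 CPM, miR-299a-3p at 47.8 ± 14.4 CPM and miR-382-5p at 34.2 ± 8.25 CPM. miR-410-3p averaged 32.3 ± 17.1 CPM and miR-411-3p 28.9 ± 7.46 CPM, and each of these lay within 1 SD of the next in order. Among all 2045 features, miR-379-5p ranked 124 and miR-411-3p ranked 306 by mean CPM. The 2 arms of miR-299a had the same counts as the arms of miR-299b on the opposite strand (9901 reads each for 1 pair and 1574 each for the other), so those reads cannot be assigned to 1 strand.

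**Figure D1:**
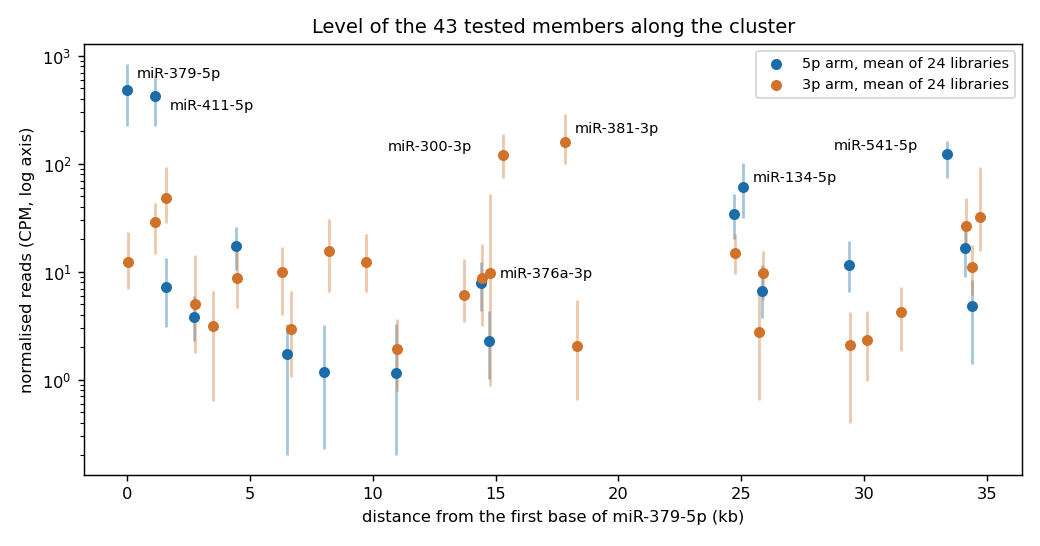
Mean level of each of the 43 tested members (points, CPM on a log axis) against its distance from miR-379-5p in kb, by arm. Vertical lines run from the lowest to the highest of the 24 libraries, with 0 drawn at 0.2 CPM. The highest levels lie at the start of the row (miR-379-5p at 482 CPM and miR-411-5p at 423 CPM), and members a short distance apart differ widely in level.

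Summed over its 76 members, the cluster gave 1891 ± 569 CPM (SD, n = 6) in wild type sedentary libraries and 1691 ± 360 CPM in wild type trained ones. Kinase dead libraries gave 1918 ± 384 CPM when sedentary and 1599 ± 334 CPM when trained. The lowest, median and highest libraries were 1029, 1947 and 2678 CPM in wild type sedentary, and 1257, 1700 and 2154 CPM in wild type trained. They were 1410, 1847 and 2491 CPM in kinase dead sedentary, and 1167, 1594 and 2018 CPM in kinase dead trained. All 4 ranges overlapped. In whole tissue, fewer cells that express the cluster and less cluster RNA per cell cannot be told apart.

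The cluster's level was mostly lower in the libraries high in lymphocyte miRNAs. In the 7 libraries high in miR-150-5p the summed level ran from 1029 to 2213 CPM with a median of 1302 CPM, and in the other 17 from 1492 to 2678 CPM with a median of 1909 CPM. The 6 lowest of the 24 libraries were all among the 7, and kinase dead sedentary 6, at 2213 CPM, was the exception. This order depended on the TMM factors. As a share of all reads, the medians were 0.142% in the 7 and 0.183% in the 17, but the sets overlapped more. Wild type sedentary 3 (0.140%), wild type trained 4 (0.146%) and kinase dead trained 2 (0.148%), all of the 17, lay below kinase dead trained 3 (0.151%) and kinase dead sedentary 5 (0.165%). Most other lists were lower in the 7 as well: the medians in the 7 and in the 17 were 16021 and 20869 CPM for stromal cells, 13201 and 18872 CPM for epithelium, 117045 and 150457 CPM for smooth muscle, and 37820 and 51116 CPM for endothelium. They were 866 and 2074 CPM for striated muscle, 170 and 192 CPM for nerve, 1797 and 2066 CPM for red cells and 10.8 and 54.6 CPM for liver. The nerve and red cell lists were mixed. By median, miR-129-5p (73.0 and 61.1 CPM), miR-219a-5p (11.3 and 4.30 CPM) and miR-144-3p (300 and 277 CPM) were higher in the 7. In the same lists miR-9-5p, the miR-124a features and miR-451a were lower in the 7. The mean red cell sum was higher in the 7, at 2815 CPM against 2333 CPM. The 33 other plus-strand miRNAs of the Dlk1-Dio3 region, upstream of the cluster, had a median sum of 1507 CPM in the 7 and 1898 CPM in the 17. The part of these cell-type miRNAs in the results below was not tested beyond leaving the 7 libraries out. Without them the group means were 2064 ± 425 CPM in 5 wild type sedentary libraries, 1876 ± 278 CPM in 4 wild type trained, 1971 ± 356 CPM in 4 kinase dead sedentary and 1782 ± 222 CPM in 4 kinase dead trained.

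**Figure D2:**
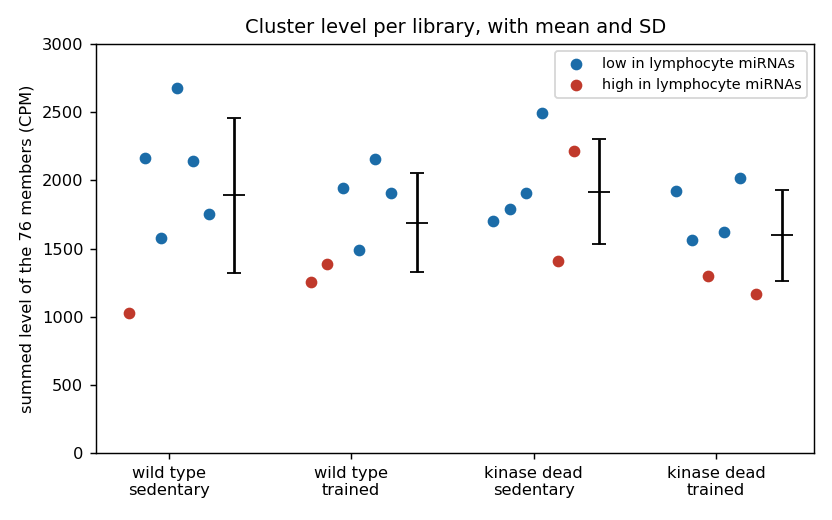
Summed CPM of the 76 members in each library, by group, with the group mean and SD beside the points and red points for the 7 libraries high in miR-150-5p. The 4 groups overlap, and with TMM scaling 6 of the 7 red points are the lowest of all 24.

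Training was first compared within wild type mice. No member passed edgeR's quasi-likelihood test at a Benjamini-Hochberg adjusted p of 0.05, and neither did any of the 654 tested features (0%). At an unadjusted p under 0.05 there were 0 of 43 members and 38 of 654 features (5.81%), and DESeq2 gave 0 adjusted calls and, at that unadjusted level, 2 members and 41 features. Of the 43 members, 31 had a lower fitted level in trained libraries, with a median log2 fold change of -0.14 against -0.01 for all tested features. That direction did not hold without the 7 libraries high in lymphocyte miRNAs, where the median of these members was 0.05, nor without wild type trained 1, where it was 0.02.

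miR-379-5p had a lowest, median and highest value of 225, 535 and 729 CPM in wild type sedentary libraries and 318, 428 and 599 CPM in wild type trained ones. The trained range lay inside the sedentary one, and the log2 fold change was -0.22 (SE 0.26, edgeR adjusted p = 0.99), from -0.37 without wild type sedentary 1 to -0.07 without wild type sedentary 2. miR-411-5p ran from 227 to 659 CPM (median 445 CPM) in sedentary and from 342 to 576 CPM (median 399 CPM) in trained libraries. Its log2 fold change was -0.12 (SE 0.21), and 0.01 without wild type sedentary 4. Among the other abundant members, the log2 fold changes were -0.23 (SE 0.25) for miR-381-3p, 0.03 (SE 0.20) for miR-541-5p and -0.0044 (SE 0.21) for miR-300-3p, with the last changing sign under several alternatives. Without wild type sedentary 4 that of miR-381-3p was -0.016.

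The wild type member with the smallest p was miR-380-3p, a low member which averaged 6.87 ± 3.81 CPM in the sedentary group against 4.02 ± 1.33 CPM after training (n = 6 each). Its ranges, 4.14 to 14.4 CPM and 2.85 to 5.73 CPM, overlapped, and its log2 fold change was -0.72 (SE 0.35, edgeR adjusted p = 0.83), or -0.42 without wild type sedentary 4. miR-376a-3p had the next smallest p, with lowest, median and highest values of 1.84, 12.0 and 52.2 CPM in sedentary and 0.871, 3.67 and 12.2 CPM in trained libraries. Its log2 fold change was -1.57 (SE 0.81, edgeR adjusted p = 0.86), and 1 library, wild type sedentary 4, held the highest value; without it the change was -0.83. Without the 7 libraries high in lymphocyte miRNAs it was -2.86 (SE 0.87, edgeR adjusted p = 0.25). For miR-410-3p the log2 fold change was -0.53 (SE 0.35, edgeR adjusted p = 0.91), and -0.08 without wild type sedentary 4.

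In kinase dead mice no member and no feature (0% of 654) passed the adjusted threshold in edgeR. At the unadjusted level edgeR gave 1 of 43 members and 17 of 654 features (2.6%), and DESeq2 gave 0 adjusted calls and, at the unadjusted level, 0 members and 17 features. The fitted level was lower in trained libraries for 28 of 43 members, with a median of -0.07 against -0.02 for all features. The median turned to 0.20 without the 7 libraries high in lymphocyte miRNAs and to 0.05 without kinase dead trained 3.

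The member at the unadjusted level was miR-485-5p, at 8.37 ± 1.90 CPM in kinase dead sedentary and 5.69 ± 1.75 CPM in kinase dead trained libraries. Its lowest, median and highest values were 6.32, 7.99 and 11.7 CPM in sedentary and 3.70, 5.41 and 8.67 CPM in trained libraries. The ranges overlapped, and the log2 fold change was -0.51 (SE 0.22), with an edgeR p of 0.0329 before and 0.997 after adjustment. The 2 most abundant members came next. miR-379-5p ran from 283 to 850 CPM (median 538 CPM) in sedentary and from 300 to 601 CPM (median 366 CPM) in trained libraries, a log2 fold change of -0.50 (SE 0.26), or 0.71-fold with a 95% interval from 0.49-fold to 1.03-fold. miR-411-5p ran from 254 to 573 CPM (median 487 CPM) and from 238 to 422 CPM (median 366 CPM), a log2 fold change of -0.40 (SE 0.21). Neither passed the unadjusted level. In the same comparison the values were -0.11 (SE 0.25) for miR-381-3p, -0.07 (SE 0.19) for miR-541-5p and 0.03 (SE 0.21) for miR-300-3p, also as log2 fold changes.

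Averaged over both genotypes, training gave 0 adjusted calls among members and among all features (0%) in edgeR and in DESeq2. At the unadjusted level edgeR gave 1 of 43 members against 37 of 654 features (5.66%), and DESeq2 gave 1 member and 41 features. Without the 7 libraries high in lymphocyte miRNAs, the unadjusted edgeR count was 6 of 45 members and 81 of 642 features. That member in edgeR was miR-376a-3p, with a log2 fold change of -1.23 (SE 0.58), an edgeR p of 0.0433 before and 0.84 after adjustment, and -0.86 without wild type sedentary 4 and -1.95 without kinase dead trained 2. miR-379-5p followed at -0.36 (SE 0.19) and miR-410-3p at -0.45 (SE 0.25), which was -0.22 without wild type sedentary 4. In all, 33 of 43 members were lower, with a median of -0.09 against -0.01 for all features, and the median was 0.14 without the 7 libraries high in lymphocyte miRNAs.

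**Figure D3:**
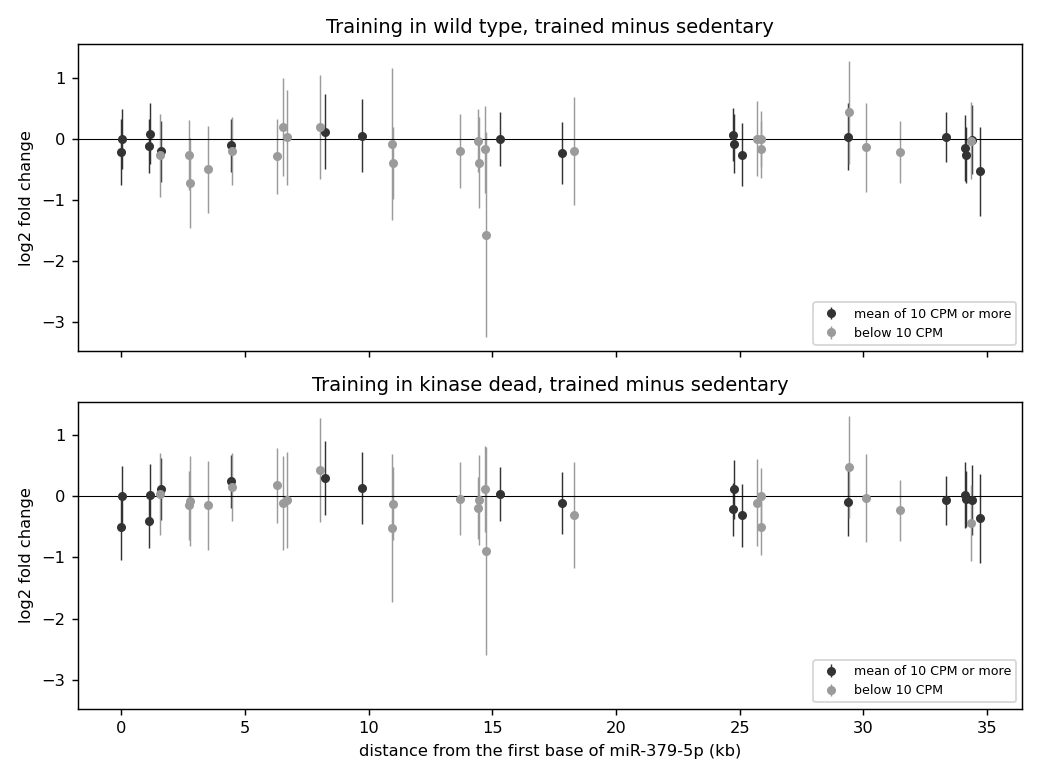
Log2 fold change of each tested member, trained minus sedentary, with its 95% interval, against distance from miR-379-5p in kb, for wild type (top) and kinase dead (bottom). Dark points average 10 CPM or more. Every interval includes 0 except that of miR-485-5p in kinase dead mice, and the widest are those of miR-376a-3p and of low members.

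The test of whether training acted differently in the 2 genotypes gave 0 adjusted calls in edgeR (0%). At the unadjusted level there were 0 of 43 members and 13 of 654 features (1.99%) in edgeR, and 0 members and 14 features in DESeq2, which also made no adjusted call. The 3 members with the smallest p were miR-485-5p, with a difference of log2 fold changes, kinase dead minus wild type, of -0.50 (SE 0.31), miR-380-3p at 0.64 (SE 0.50) and miR-329-5p at 0.36 (SE 0.30). miR-380-3p was at 0.28 without kinase dead trained 2, and miR-329-5p at 0.18 without wild type trained 1. For miR-379-5p the difference was -0.28 with a 95% interval from -1.05 to 0.48, so effects of either sign remain within the error.

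Between genotypes, sedentary kinase dead and wild type libraries also gave 0 adjusted calls (0%) in edgeR and in DESeq2. At the unadjusted level edgeR gave 0 of 43 members and 5 of 654 features (0.765%), and DESeq2 gave 0 members and 6 features. The fitted level was lower in kinase dead libraries for 30 of 43 members, with a median of -0.09 against 0.01 for all features. Without the 7 libraries high in lymphocyte miRNAs, 37 of 45 members were lower, the median of the 43 was -0.24, and the unadjusted edgeR count was 4 of 45 members and 18 of 642 features, with 0 adjusted calls. The smallest p belonged to miR-485-5p, with a log2 fold change, kinase dead minus wild type, of 0.40 (SE 0.22), then miR-667-3p at -0.50 (SE 0.30) and miR-679-5p at 0.56 (SE 0.40). Without those 7 libraries miR-667-3p was at -0.86 (SE 0.31, edgeR adjusted p = 0.98) and miR-679-5p at 0.33 (SE 0.45). Between trained libraries there were 0 adjusted calls (0%) in either tool. At the unadjusted level edgeR gave 0 of 43 members and 6 of 654 features (0.917%), and DESeq2 gave 0 members and 11 features. miR-329-5p at 0.27 (SE 0.21), miR-411-5p at -0.26 (SE 0.21) and miR-667-3p at -0.22 (SE 0.28) had the smallest p there. miR-329-5p was at 0.11 without wild type trained 1, and miR-667-3p ran from -0.46 without kinase dead trained 1 to -0.11 without wild type trained 5. The comparisons share libraries, so these values are not separate evidence.

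No member passed the test in any comparison, but the members varied together within groups. Each member's log2 CPM was taken as a deviation from its group mean, and Pearson's r was computed for each pair over the 24 libraries. The points share library depth and cell content, so r is given as a description. The median r was 0.51 over the 903 pairs of tested members, and 95.9% of pairs were above 0. For the 19 members at 10 CPM or more, which are less affected by counting error, the median was 0.63. Pairs of a member and 1 of the 593 other tested features, which include miR-299b, had a median of -0.08 (0.0066 with library totals in place of TMM factors), and pairs outside the locus a median of 0.01.

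The shared variation reached beyond the cluster, since pairs of a member and 1 of the 18 other tested miRNAs of the Dlk1-Dio3 region also had a median r of 0.51. It did not rest on the 7 libraries high in lymphocyte miRNAs: in the other 17 the median for members was 0.43, against -0.03 for members with features outside the locus. Within the 7 the medians were 0.55 and -0.02. There the deviations were taken from 1 mean over the 7, so differences between groups enter those values. Of the 43 members, 24 had their closest partner among all tested features within the cluster, 11 among the other plus-strand miRNAs of the locus and 6 outside it. For the remaining 2, the arms of miR-299a, it was the opposite-strand miR-299b, which has the same counts. The closest pair was miR-300-3p and miR-382-5p, 9.42 kb apart, with r = 0.92.

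Distance along the cluster made little difference to r. The median was 0.62 for the 13 pairs of arms from 1 hairpin, 0.51 for other pairs under 2 kb apart, 0.52 from 2 to 10 kb, 0.50 from 10 to 20 kb and 0.51 at 20 kb or more. miR-379-5p and miR-134-5p, 25.1 kb apart and on either side of the start of Mirg, had r = 0.90, while miR-379-5p and miR-411-5p, 1.12 kb apart, had r = 0.87.

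**Figure D4:**
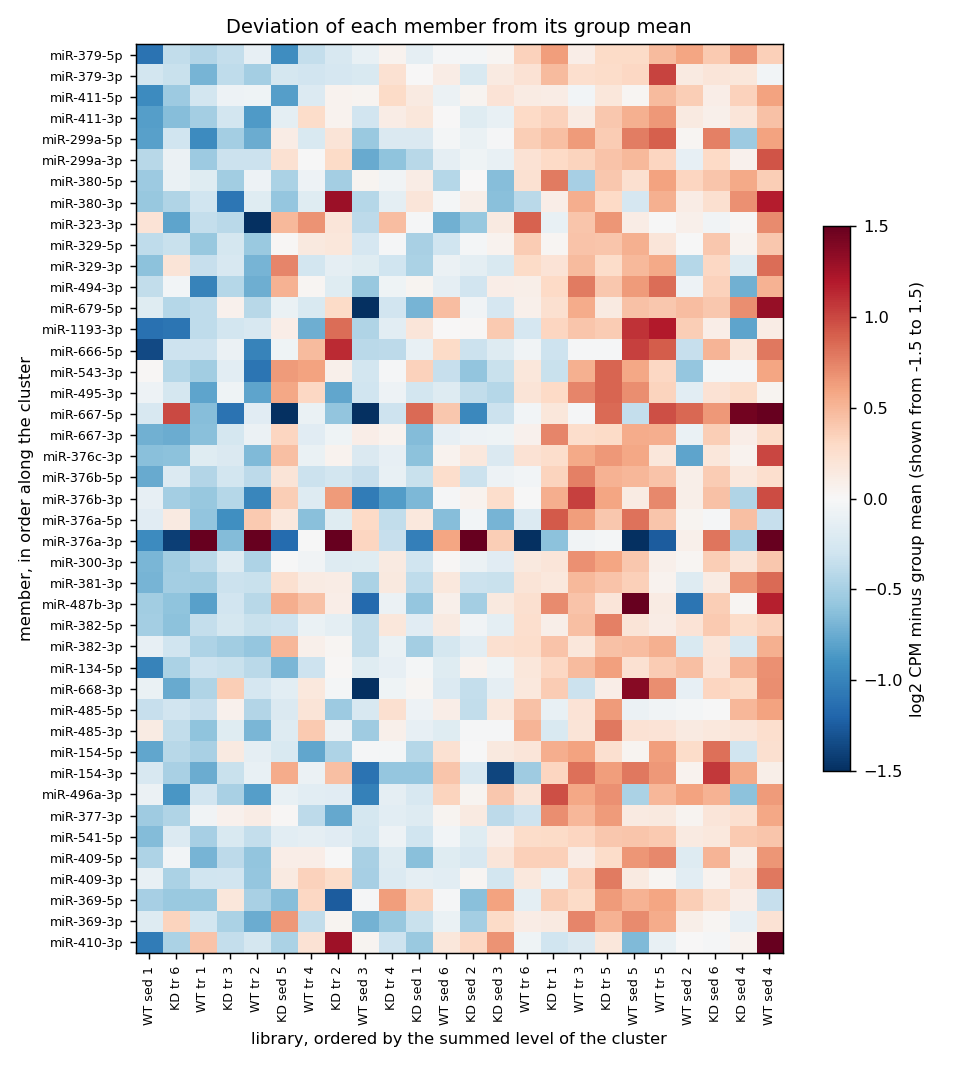
Deviation of each tested member from its group mean (log2 CPM, colour limited to the range from -1.5 to 1.5), with members in genomic order and the 24 libraries ordered by summed cluster level (WT, wild type; KD, kinase dead; sed, sedentary; tr, trained). Most rows change from blue to red together, whereas miR-376a-3p and, in part, miR-410-3p do not.

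Of the 43 tested members, miR-376a-3p had a median r of -0.09 with the others and miR-410-3p one of 0.20. miR-376a-3p ranged from 0.871 to 52.2 CPM, 59.9-fold, and its within-group SD was 1.42 on the log2 scale, against a median of 0.48 for members. Of 119 tested features between 5 and 20 CPM, 4 had a larger SD. The other arm of its hairpin, miR-376a-5p, had a median r of 0.28 with the members. miR-376a-3p and miR-410-3p, which have different seeds and lie 19.9 kb apart, varied with each other (r = 0.78).

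Their closest partners lay outside the locus. miR-376a-3p varied with miR-193a-3p (r = 0.95), miR-188-5p (r = 0.93), miR-181c-5p (r = 0.93) and miR-22-3p (r = 0.90), and miR-410-3p with miR-22-3p (r = 0.85). In the 17 libraries low in lymphocyte miRNAs miR-376a-3p and miR-193a-3p had r = 0.95. miR-376a-3p was highest in wild type sedentary 4 (52.2 CPM) and kinase dead trained 2 (28.2 CPM). miR-410-3p was also highest in these libraries, at 93.0 and 61.6 CPM, and miR-193a-3p stood at 745 and 1050 CPM there. These are the 2 shallowest libraries, with 1601209 and 2286275 reads. The third highest for miR-376a-3p, kinase dead sedentary 2 at 23.7 CPM, had 7254410 reads; the part of depth was not tested.

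Arm use was measured as the share of a hairpin's reads that came from its 5p arm. Of the 33 hairpins with both arms in the table and at least 100 reads, 10 gave mostly 5p and 23 mostly 3p reads, and in 20 more than 90% of reads came from 1 arm. The 5p share, as the mean over 24 libraries ± SD, was 97.4 ± 0.65% for miR-379, 93.5 ± 1.5% for miR-411, 69.2 ± 5.49% for miR-382 and 13.1 ± 2.54% for miR-299a. It was 38.3 ± 5.77% for miR-409 and 66.7 ± 4.81% for miR-329. Among the 13 hairpins with both arms tested, the share varied most for miR-376a, with an SD of 22.6% and a range from 3.33% to 70.0% across libraries, and then for miR-667, with an SD of 17.3% and a range from 0% to 70.0%. Both are low hairpins, but miR-380, with 798 reads from its 5p arm and 967 from its 3p arm, had an SD of 9.52%. For miR-376a the reads were 458 and 1548. Its 3p arm ranged 59.9-fold in CPM across libraries and its 5p arm 4.23-fold. The part of counting error in these shares was not tested.

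The log2 ratio of 5p to 3p reads was compared between groups with limma over the 225 hairpins with both arms tested, 13 of them in the cluster. Training in wild type gave 0 adjusted calls (0%), and at the unadjusted level 0 of 13 against 17 of 225 (7.56%). Training in kinase dead mice gave 0 adjusted calls (0%), and at the unadjusted level 2 of 13 against 12 of 225 (5.33%), the pair being miR-485 and miR-379. The interaction gave 0 adjusted calls (0%) and 1 of 13 against 8 of 225 (3.56%) unadjusted. The genotype comparison gave 0 adjusted calls (0%) and 1 of 13 against 7 of 225 (3.11%) in sedentary libraries, and 0 of 225 (0%) at either level in trained ones. In wild type training the smallest p was that of miR-376b, with a change of the log2 arm ratio of 0.42 (SE 0.27), or 0.11 without the 7 libraries high in lymphocyte miRNAs. Between trained genotypes it was that of miR-411, at -0.32 (SE 0.20), or -0.14 without those libraries.

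miR-485 had the smallest p in the 3 other comparisons. Its 5p share was 37.2 ± 5.89% in wild type sedentary, 40.4 ± 3.70% in wild type trained, 46.9 ± 4.17% in kinase dead sedentary and 38.3 ± 4.29% in kinase dead trained libraries (SD, n = 6 each). The lowest, median and highest values were 29.6, 38.1 and 43.2% in wild type sedentary and 36.1, 39.9 and 44.8% in wild type trained. They were 40.7, 47.1 and 52.5% in kinase dead sedentary and 30.8, 39.9 and 42.5% in kinase dead trained. Kinase dead sedentary libraries were the highest group, and their lowest library overlapped the upper end of each other group.

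The log2 arm ratio of miR-485 was 0.57 higher (SE 0.17) in kinase dead than in wild type sedentary libraries, with a limma p of 0.00255 before and 0.33 after adjustment. With training in kinase dead mice it was -0.50 (SE 0.17), with a limma p of 0.00704 before and 0.59 after adjustment. The interaction was -0.70 (SE 0.24), with a limma p of 0.00803 before and 0.89 after adjustment. The same kinase dead sedentary libraries enter all of these. With the 7 libraries high in lymphocyte miRNAs left out, the genotype difference in sedentary libraries was 0.53 (SE 0.19, limma adjusted p = 0.68). The change with training in kinase dead mice was then -0.63 (SE 0.21, limma adjusted p = 0.36). The interaction was then -0.60 (SE 0.28, limma adjusted p = 0.85). The hairpin had 1427 reads from the 5p arm and 2129 from the 3p arm over all libraries, and intervals from reads would cover counting error only.

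**Figure D5:**
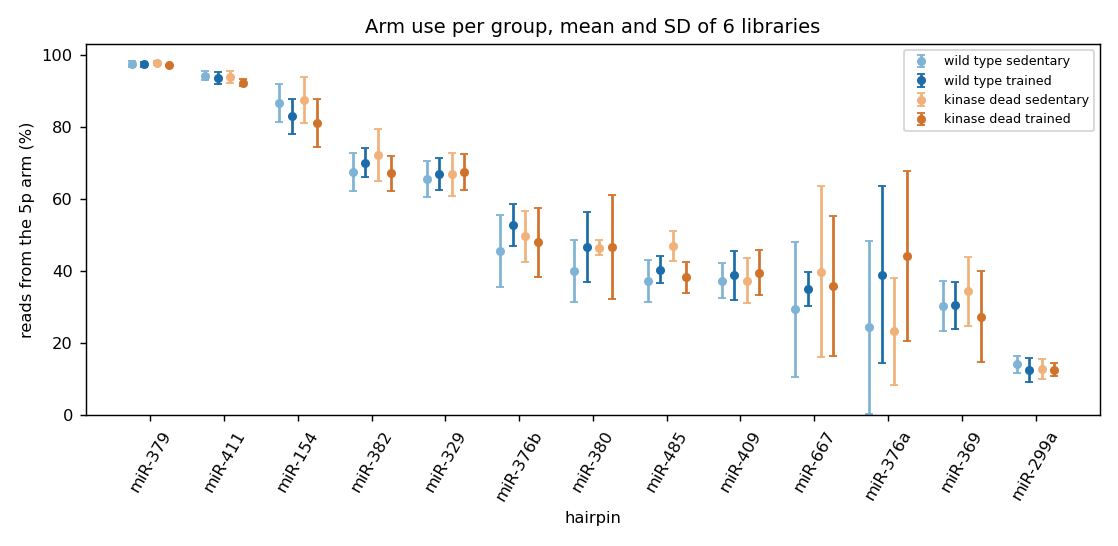
Share of reads from the 5p arm (%) for the 13 cluster hairpins with both arms tested, as the mean and SD of 6 libraries in each group. Shares range from 97.4% for miR-379 to 13.1% for miR-299a, and groups differ less than hairpins do. For miR-485 the kinase dead sedentary mean of 46.9% stands above the others.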

How the data were processed

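Raw counts per mature miRNA were used as deposited by the authors, with no normalisation. The tools named in the submitters' processing notes are featureCounts, Bowtie2, Trim Galore and CASAVA 1.8.2, with the mm10 build. Other versions and settings, and how reads that map to several places were counted, were not given in the sources used here. Small RNA libraries were made from total RNA with a kit for small RNA, per the labels' protocols.

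Features were filtered with edgeR's filterByExpr, which kept 654 of 2045; the 1391 left out held 0.0166% of reads. One fit over all 4 groups (R 4.3.3, edgeR 4.0.16, TMM, quasi-likelihood test) gave every comparison, with Benjamini-Hochberg adjustment over the 654. Log2 CPM for covariation used a prior count of 2. Arm ratios, log2 with a pseudocount of 0.5, were tested with limma 3.58.1 over 225 hairpins. DESeq2 1.42.0 was an alternative, as were other scalings, no filter, fits to the groups compared alone, leaving out single libraries and leaving out the 7 libraries high in lymphocyte miRNAs. The scripts were tested on simulated data.

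The members, lists and alternatives were chosen with earlier results of these data known. Named members are the 10 most abundant and, in each comparison, the 3 tested members, and the hairpin, with the smallest p; arm shares are given for the 6 hairpins with most reads among the 13 of the cluster with both arms tested. miR-376a-3p and miR-410-3p were singled out for their covariation after the values were seen. Names and sequences came from RefSeq (GRCm38.p6) by coordinates, and host transcripts from GENCODE M21, which uses the same assembly.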

Additional observations from a re-analysis of the deposited data

Results flagged for a closer look

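In each group of 6 libraries the highest and the lowest value were compared with the nearest of the others, for the summed cluster, 11 members and 6 arm shares. This made 72 groups, of which 8 had a library set apart by more than Dixon's critical value; chance flags about 1 in 20 groups.

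Wild type sedentary 4 stood above its group in miR-410-3p, at 93.0 CPM with the next library at 36.9 CPM, and in miR-376a-3p, at 52.2 CPM with the next at 15.8 CPM. Kinase dead trained 2 stood above its group in the same 2 members, with miR-410-3p at 61.6 CPM against 28.5 CPM for the next, and miR-376a-3p at 28.2 CPM against 3.11 CPM. Kinase dead sedentary 5, one of the libraries high in lymphocyte miRNAs, stood below its group in miR-411-5p, at 253.9 CPM with the next at 461 CPM. The same library had the lowest 5p share of the miR-411 hairpin, 90.7% (1406 of 1551 reads, exact 95% interval 89.1% to 92.1%, against 93.8% for the next), and of the miR-329 hairpin, 55.2% (91 of 165 reads, 47.2% to 62.9%, against 66.9%). Wild type sedentary 1 had the lowest 5p share of the miR-379 hairpin in its group, 95.7% (979 of 1023 reads, 94.3% to 96.9%, against 97.3%). These intervals cover counting error only.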

How the results depend on the processing

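No alternative and no left-out library gave an adjusted call for any member. Of 313 values under alternatives other than leaving out 1 library, 14 changed sign, of which 6 were medians over the members. The 313 include counts of calls, all 0, and summed cluster levels, which could not change sign. For miR-300-3p with training in wild type the log2 fold change became 0.038 with library totals, 0.018 with TMM factors computed without the members, 0.053 without the filter, 0.097 without the 7 libraries high in lymphocyte miRNAs and 0.020 in a fit to the 2 groups alone. Without the same 7, training in kinase dead mice gave 0.14 for miR-381-3p and 0.028 for miR-541-5p, and the medians over members became 0.054 in wild type training, 0.20 in kinase dead training and 0.14 averaged. Between trained genotypes the median of -0.019 became 0.0032 with library totals, 0.0047 in DESeq2 and 0.019 in a fit to the 2 groups alone. The median r of members with features outside the locus became 0.0066 with library totals.

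Leaving out 1 library at a time gave 720 values, of which 39 changed sign, 20 for single members and 19 for medians over members. The 720 also include counts of calls, all 0, which could not change sign. The ranges of those members in wild type training were -0.26 to 0.015 for miR-411-5p, -0.078 to 0.17 for miR-541-5p and -0.12 to 0.12 for miR-300-3p. In kinase dead training they were -0.21 to 0.062 for miR-381-3p, -0.16 to 0.024 for miR-541-5p and -0.097 to 0.11 for miR-300-3p. The median over members ranged from -0.22 to 0.02 in wild type training, -0.16 to 0.05 in kinase dead training, -0.11 to 0.16 for the interaction, -0.12 to 0.05 between sedentary genotypes and -0.15 to 0.07 between trained genotypes, so its sign depended on single libraries. The causes were not tested. Depth limits the low members: 3 reads correspond to 0.118 CPM in the deepest and 1.8 CPM in the shallowest library. No paired analysis was possible because the replicate numbers follow the order of the sample list and pair nothing.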

Other observations

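The 18 other tested plus-strand miRNAs of the Dlk1-Dio3 region, which lie upstream of the cluster, had no adjusted call either. Of these, 13 were lower with training in wild type (median log2 fold change -0.29, against -0.14 for the members) and 12 in kinase dead mice (median -0.12, against -0.07), with 0 adjusted calls in edgeR for either genotype. Between trained genotypes 5 of the 18 were lower in kinase dead libraries (median 0.058), against 22 of the 43 members (median -0.019). Over all tested features 41.9% were lower in that comparison, with a median of 0.053, close to that of the 18. Without adjustment, training gave 1 of 18 against 38 of 654 features in wild type and 0 against 17 in kinase dead mice in edgeR, and 1 against 41 and 0 against 17 in DESeq2. Their summed level was 2228 ± 775 CPM in wild type sedentary, 1741 ± 342 CPM in wild type trained, 2046 ± 304 CPM in kinase dead sedentary and 1794 ± 408 CPM in kinase dead trained libraries (SD, n = 6 each), and the ranges overlapped.

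Members differed in how closely they followed the rest. In all, 24 of the 43 had a median r above 0.5 with the other members and 3 had one below 0.3; these 3 were miR-376a-3p (-0.09), miR-410-3p (0.20) and miR-376a-5p (0.28).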
